A study of Mus musculus with 4 samples.

Results

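The subject is a rare set of cell barcodes in which RNA of microglial identity was counted beside RNA of an Apoe-high state of brain macrophages. A barcode marks the molecules (UMIs, unique molecular identifiers) caught in 1 droplet. Members had at least 500 UMIs, at most 10% of them mitochondrial, with Apoe at 1% or more of UMIs, P2ry12 at 0.15% or more, at least 1 UMI of Ms4a7 and at least 1 of Sall1. They also had no more than 2 UMIs over Lyve1, F13a1, Cd163 and Cbr2, which mark macrophages of the brain's borders. These bounds were met by 317 of 61371 kept barcodes, and those barcodes are called joint-gate barcodes here. The bounds are cut on measured values of these samples, so the levels of the gate genes are a description and carry no test.

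The cells were CD11b+ cells selected on magnetic columns from the cortex of wild-type mice at postnatal day 15. All mice had received an intracortical adeno-associated virus on postnatal day 0 or 1, in which the GfaABC1D promoter, active in astrocytes, drove either mCherry (named mCherry-CAAX in the series' title) or Hevin, the secreted synapse-organising protein encoded by Sparcl1. There were 2 PIPseq libraries per virus, and actinomycin D, triptolide and anisomycin, which block transcription and translation, were present from perfusion or dissection on. The labels do not give the number of animals per library, so no p-value here measures the spread between animals. Permutation p-values compare these libraries, and those of the gene-by-gene fits rest nearly on counting error. The selection works against the astrocytes that carry the transgene, but it was not complete, since barcodes of other cells such as endothelial cells were found.

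Sall1 is a transcription factor that keeps the identity of microglia, and P2ry12 is the ADP receptor by which resting microglia sense injury. Both are textbook markers of homeostatic microglia, the resident macrophages of brain tissue. Apoe encodes the main lipid carrier of the brain and is raised in microglia that respond to damage or clear debris, while Ms4a7, a membrane protein, is usually high in border-associated macrophages and in macrophages that enter the brain from blood and low in homeostatic microglia. A barcode with all 4 genes can hold 1 cell that makes them all, or 2 cells caught together, which would show them as well.

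The 4 libraries held between 49781430 and 67832685 UMIs. The median barcode had 3349 and 4037 UMIs in mCherry replicates 1 and 2, and 2317 and 3490 UMIs in Hevin replicates 1 and 2. The lowest deposited barcode stood at 2038, 2993, 965 and 2178 UMIs in the same order, so the libraries were admitted at different depths. Xist, which coats the silenced X chromosome, was seen in 62.9% and 95.7% of barcodes under mCherry and 0.287% and 94.5% under Hevin, and Y-linked RNA in 18.2% and 0.644%, and 25.2% and 0.696%. Sex RNA thus differed within and between the groups. Scrublet, a doublet caller, marked 2 barcodes in each mCherry library (0.0112% and 0.0184%), too few to serve as a rate of doublets there, but 285 and 275 with Hevin (1.45% and 2.11%). Across libraries 21 barcode sequences were shared, none of them a member.

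Joint-gate barcodes were found almost wholly in the Hevin libraries. They numbered 4 of 17833 kept barcodes in mCherry replicate 1 and 2 of 10849 in mCherry replicate 2, or 0.0224% (95% exact binomial interval 0.00611% to 0.0574%) and 0.0184% (0.00223% to 0.0666%). They numbered 158 of 19653 in Hevin replicate 1 and 153 of 13036 in Hevin replicate 2, or 0.804% (0.684% to 0.939%) and 1.17% (0.996% to 1.37%). Both Hevin libraries lay above both mCherry libraries. The mean share was 0.989% ± 0.261 (SD, n = 2) against 0.0204% ± 0.00283 (SD, n = 2), a ratio of 48.4. An exact two-sided permutation test gave p = 0.333, the smallest that 2 libraries against 2 can give. The intervals cover counting error only. Fewer barcodes of other kinds and more of this kind cannot be told apart in a share.

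The classes that carried only 1 of the programmes also differed between the groups. Microglia-only barcodes had the Sall1 and P2ry12 bounds met, Apoe under 1% and no Ms4a7. They made up 48.6% and 58.8% of kept barcodes under mCherry but 9.65% and 21.4% under Hevin. Apoe-only barcodes had the Apoe and Ms4a7 bounds met, no Sall1 and P2ry12 under 0.15%. Under mCherry 20 and 9 were found (0.112% and 0.0830%), and under Hevin 6175 and 3668 (31.4% and 28.1%). The ratio of the mean shares, Hevin over mCherry, was 0.290 for microglia-only and 305 for Apoe-only barcodes, beside 48.4 for members. The smallest p that the design allows, 0.333, was again reached for both.

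Set against the cells they could be drawn from, joint-gate barcodes were a smaller share of Apoe-high barcodes in the Hevin libraries and a larger share of Sall1 and P2ry12 barcodes. Among barcodes that met the Apoe and Ms4a7 bounds, they were 4 of 38 (10.5%, interval 2.94% to 24.8%) and 2 of 22 (9.09%, 1.12% to 29.2%) under mCherry. Under Hevin they were 158 of 8624 (1.83%, 1.56% to 2.14%) and 153 of 5251 (2.91%, 2.48% to 3.41%). Among barcodes that met the Sall1 and P2ry12 bounds, the order was the opposite, with 0.0437% and 0.0302% under mCherry but 5.90% and 4.19% under Hevin. The direction of the difference between groups thus depended on the denominator.

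**Figure D1:**
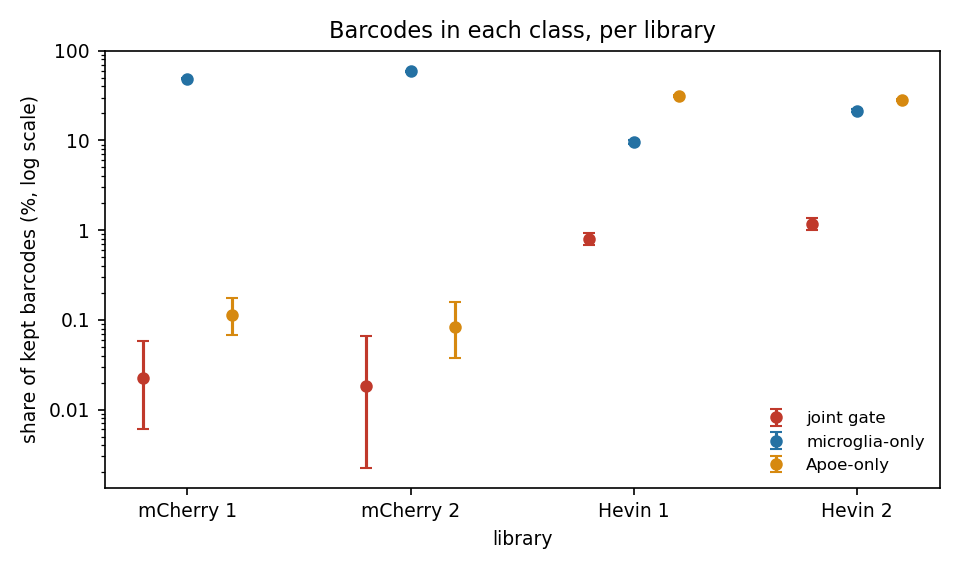
Share of kept barcodes in the joint gate, the microglia-only class and the Apoe-only class (y axis, percent, log scale) in each of the 4 libraries (x axis), with 95% exact binomial intervals as bars. Joint-gate and Apoe-only barcodes are both far more frequent in the Hevin libraries, where microglia-only barcodes are fewer.

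Among the gate genes, Apoe (chromosome 7, 19696109 to 19699188, minus strand, GRCm38) was the most abundant in the members. Its median share of UMIs was 3.04% in Hevin replicate 1 (lowest 1.01%, highest 6.54%) and 2.55% in Hevin replicate 2 (1.01% to 7.10%). Summed over members, Apoe stood at 28396 and 25834 CPM (a gene's UMIs scaled to a common total of all UMIs in the sum) in the 2 Hevin libraries, against 4491 and 3106 CPM in microglia-only barcodes and 34333 and 35809 CPM in Apoe-only barcodes. Members therefore came close to the Apoe-only level without reaching it. Ms4a7 (chromosome 19, 11321039 to 11336146, minus strand) had a median of 3 and 4 UMIs per member and summed to 821 and 866 CPM, against 1160 and 1259 CPM in Apoe-only barcodes.

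P2ry12 (chromosome 3, 59216272 to 59262871, minus strand) was low in the members. Its median share was 0.210% (0.151% to 0.624%) in Hevin replicate 1 and 0.233% (0.15% to 0.604%) in Hevin replicate 2, against a bound of 0.15%. Summed P2ry12 stood at 2328 and 2672 CPM in members, 4385 and 4891 CPM in microglia-only barcodes and 720 and 727 CPM in Apoe-only barcodes. Sall1 (chromosome 8, 89027235 to 89044162, minus strand) summed to 287 and 276 CPM in members and to 549 and 475 CPM in microglia-only barcodes. A single Sall1 UMI admitted 134 of 158 members (84.8%) and 110 of 153 (71.9%). Only 3 and 15 members had 3 Sall1 UMIs or more. All 4 border genes together were at 0 in 89 and 95 members.

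For Sall1 the gate thus rested mostly on its lowest step. Between 0.15% and 0.17% P2ry12 there were 34 and 25 members, and 53 and 40 barcodes that met every other bound lay just outside, between 0.13% and 0.15%. With Sall1 at 0 and all other bounds met there were 1822 and 1083 barcodes. The Apoe bound cut through few barcodes, with 7 and 3 members at 1% to 1.1% and 10 and 8 barcodes outside at 0.9% to 1%. A single Ms4a7 UMI was held by 46 and 27 members, and 72 and 40 barcodes lacked Ms4a7 alone. At 2 border-gene UMIs there were 20 and 14 members, and 6 and 6 barcodes lay outside with 3.

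Sall1 was then compared with cells that should lack it, because free RNA in the suspension gives stray UMIs to every droplet. Each barcode was thinned to 2000 UMIs so that depth was equal, which left out shallower barcodes of Hevin replicate 1 (834 of the Apoe gate with high P2ry12, 1812 of that with low P2ry12, 265 border macrophages, 30 endothelial barcodes and 2631 of the microglial side) and none of Hevin replicate 2. Of barcodes with the Apoe, Ms4a7 and P2ry12 bounds met, 6.20% (exact interval 4.87% to 7.75%) and 6.15% (4.87% to 7.64%) then held Sall1. With P2ry12 under its bound the shares were 4.74% (4.16% to 5.38%) and 4.63% (4.0% to 5.33%). In border macrophages, called by at least 5 UMIs of the 4 border genes, they were 5.47% (3.99% to 7.30%) and 5.41% (3.97% to 7.17%). In endothelial barcodes they were 3.20% (1.29% to 6.47%) and 1.33% (0.162% to 4.73%). On the microglial side, with P2ry12 high, Apoe under 1% and Ms4a7 at 0, they were 35.8% (34.0% to 37.7%) and 42.8% (41.4% to 44.2%).

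At equal depth the share of P2ry12-high Apoe barcodes with Sall1 therefore lay inside the interval of border macrophages in both Hevin libraries. A difference from border macrophages in that share was not detectable at this depth. Against endothelial barcodes the intervals overlapped in Hevin replicate 1 but not in Hevin replicate 2, where the endothelial share was lower. Without thinning the shares were 7.98% and 12.4% (median 2270 and 3315 UMIs), 9.51% and 11.7% in border macrophages (3186 and 4504 UMIs) and 9.24% and 12.7% in endothelial barcodes (4140 and 5944 UMIs). Barcodes with 2 or more Sall1 UMIs were more frequent in the P2ry12-high Apoe gate, at 1.21% (0.778% to 1.80%) and 3.48% (2.53% to 4.66%), than in border macrophages at 0.761% (0.329% to 1.49%) and 1.56% (0.835% to 2.66%), with intervals that overlapped in both libraries. Overlap of intervals is not a test of a difference, and none was run on this share. Summed Sall1 was 35.1 (exact Poisson interval 30.3 to 40.6) and 46.4 CPM (40.5 to 52.9) in the P2ry12-high Apoe gate and 28.5 (23.5 to 34.4) and 25.6 CPM (21.1 to 30.9) in border macrophages, so these intervals overlapped in Hevin replicate 1 but not in Hevin replicate 2. It was 15.5 and 12.1 CPM in endothelial barcodes and 230 and 297 CPM on the microglial side. The other gate genes also had a level in endothelial barcodes, where Apoe stood at 3585 and 2211 CPM, P2ry12 at 333 and 249 CPM and Ms4a7 at 84.0 and 52.8 CPM. Only 3 of 249 and 0 of 150 endothelial barcodes reached the P2ry12 bound. Of border macrophages 108 of 1051 (10.3%) and 51 of 832 (6.13%) reached it, with summed P2ry12 at 688 and 629 CPM.

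**Figure D2:**
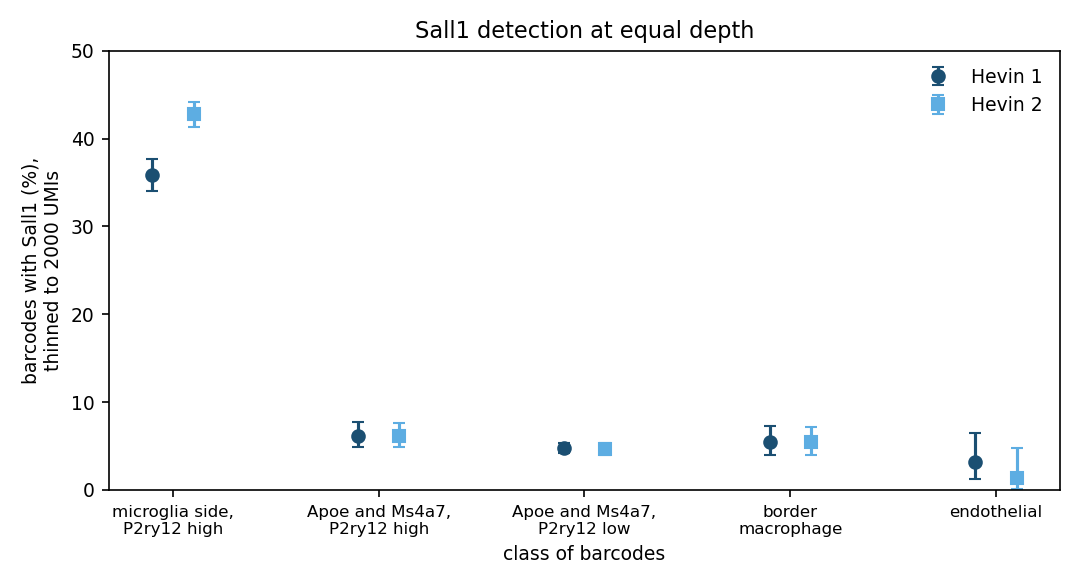
Share of barcodes with at least 1 Sall1 UMI after thinning to 2000 UMIs (y axis, percent) in 5 classes of barcodes (x axis), circles for Hevin replicate 1 and squares for Hevin replicate 2, bars for 95% exact binomial intervals. The Apoe gate with high P2ry12, at 6.20% and 6.15%, lies beside border macrophages and far below the microglial side.

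Members were deeper than either class. Their median depth was 3753.5 UMIs in Hevin replicate 1 and 4545 UMIs in Hevin replicate 2, against 2322 and 3424 UMIs in microglia-only barcodes and 2812 and 3636.5 UMIs in Apoe-only barcodes. Relative to the sum of the medians of the classes, 5134 and 7060.5 UMIs, the members' median was 0.731 and 0.644. Members at or above that sum numbered 41 of 158 (25.9%) and 33 of 153 (21.6%). Barcodes that met the Apoe, Ms4a7 and Sall1 bounds with low P2ry12 had like medians of 3848 and 4205 UMIs, whereas those with P2ry12 high and Sall1 at 0 had 2213 and 3247 UMIs. Barcodes with Sall1, P2ry12 and Ms4a7 but Apoe under 1% had medians of 2763.5 and 3937 UMIs. Those with Sall1, P2ry12 and Apoe but no Ms4a7 had 2020 and 3009 UMIs. Among these classes, a median above both single-programme classes in both libraries was seen only where the Apoe, Ms4a7 and Sall1 bounds were all met. The reason was not tested.

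The share of members climbed with depth. In Hevin replicate 1 it was 0.369% of barcodes under 2000 UMIs, 0.569% at 2000 to 3000, 0.998% at 3000 to 4000, 1.72% at 4000 to 6000, 2.05% at 6000 to 8000 and 3.05% from 8000 on. In Hevin replicate 2 it was 0.622%, 0.920%, 1.24%, 2.68% and 4.77% over the same steps from 2000 UMIs. The share of Apoe-gate barcodes with a Sall1 UMI climbed alongside, from 3.74% to 25.7% and from 6.02% to 27.9%. In mCherry libraries the members' 4 depths of 2644, 2697, 3744 and 6316 UMIs and 2 depths of 3502 and 4616 UMIs lay within the library's usual range. When every barcode was thinned to 2000 UMIs before the gate was applied, 4 and 0 barcodes met it under mCherry, beside 93 (0.788%) and 96 (0.736%) under Hevin.

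Scrublet called 40 of 158 members (25.3%, exact interval 18.7% to 32.8%) and 67 of 153 (43.8%, 35.8% to 52.0%) doublets. It called 0.316% and 0.429% of microglia-only barcodes and 0.534% and 0.354% of Apoe-only barcodes. With Apoe, Ms4a7 and P2ry12 but no Sall1 it called 3.40% and 4.89%, and with Apoe, Ms4a7 and Sall1 but low P2ry12 1.49% and 4.61%. Sall1, P2ry12 and Ms4a7 with Apoe under 1% gave 0.364% and 0.303%. With Sall1, P2ry12 and Apoe but no Ms4a7, 3 of 72 (4.17%) and 11 of 40 (27.5%, interval 14.6% to 43.9%) were called. In Hevin replicate 2 that interval overlapped the interval of the members. Of members with 8000 UMIs or more, 7 of 9 and 22 of 22 were called. Without the called barcodes 118 (0.609%) and 86 (0.674%) members remained, with medians of 3198.5 and 3661 UMIs. Scrublet scores a barcode by its likeness to summed pairs of barcodes of the same library, so its call is not independent of a gate that asks for both programmes. The part of doublets in the gate was not tested.

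**Figure D3:**
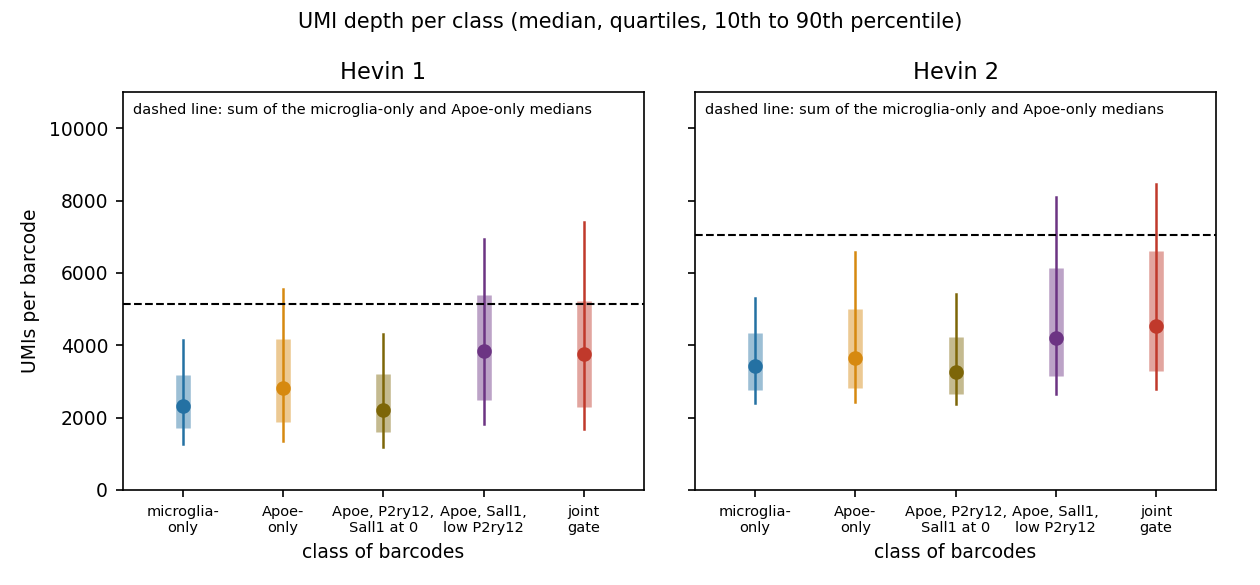
UMIs per barcode (y axis) in 5 classes of barcodes (x axis) of the 2 Hevin libraries, with the median as a point, quartiles as a thick bar and the 10th to 90th percentile as a thin line. The joint gate has medians of 3753.5 and 4545 UMIs, above both single-programme classes and below the dashed sum of their medians.

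The rest of the transcriptome was compared between summed members and summed barcodes of each class within the Hevin libraries, the libraries with at least 20 members. Each fit held 4 sums with the library as a block, 1 residual degree of freedom and a common dispersion of 0.00125 (microglia-only) and 0.00167 (Apoe-only), so that its p-values rest nearly on counting error. Gate genes and mitochondrial genes were left out of the sums and of the CPM given from here on. The classes were cut by the gate genes, and genes that go with those differ with them. Fold changes below are log2 values of members minus the other class ± SE, with adjusted p from edgeR's quasi-likelihood test and the Benjamini-Hochberg method, over n = 2 libraries. The comparisons share the sums of the members and are set side by side, not counted against each other.

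Against microglia-only barcodes 1420 of 11049 genes passed (12.9%), 745 higher in members (6.74%) and 675 lower (6.11%). Aoah, which removes acyl chains from endotoxin, stood at 21.0 and 15.0 CPM in microglia-only barcodes and at 192 and 193 CPM in members (3.44 ± 0.16, edgeR adjusted p = 2.29e-96). Gpr65, a proton-sensing receptor, went from 50.9 and 33.5 CPM to 368 and 425 CPM (3.28 ± 0.11, adjusted p = 1.06e-177). Cybb, the catalytic subunit of the phagocyte NADPH oxidase, went from 68.7 and 43.1 CPM to 506 and 480 CPM (3.18 ± 0.10, adjusted p = 2.78e-207). For each of the 3 the sums of the members lay above those of microglia-only barcodes in both libraries. The other genes named on this side were Arhgap15, a GTPase-activating protein (3.27), Pla2g7, which cleaves oxidised phospholipids (3.24), the lectin receptors Clec4n (3.22) and Clec12a (3.2), the interferon-inducible Mndal (3.07) and Ifi207 (2.97), and the transcriptional repressor Trps1 (3.01).

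Genes lower in members than in microglia-only barcodes were led by Rgs7bp, a partner of regulators of G-protein signalling, at 108 and 124 CPM in microglia-only barcodes and 33.0 and 40.2 CPM in members (−1.68 ± 0.18, edgeR adjusted p = 9.46e-18). Nav2, a neuron navigator protein, was 291 and 449 CPM, against 101 and 154 CPM in members (−1.56 ± 0.11, adjusted p = 4.23e-46). Sall3, a relative of Sall1 that the gate did not use, stood at 90.1 and 90.8 CPM against 31.4 and 33.5 CPM (−1.5 ± 0.2, adjusted p = 7.08e-12). The remaining named genes were the lipid flippase Atp8a2 (−1.61), the scaffold Magi1 (−1.57), the actin-bundling Fscn1 (−1.55), the sarcoglycan Sgce (−1.45), the chemokine Ccl9 (−1.44), the myelin protein gene Pmp22 (−1.39) and the membrane protein gene Tmem44 (−1.38). When members needed at least 2 Sall1 UMIs, Sall3, Ccl9 and Tmem44 no longer passed. Without Scrublet's calls Sall3 (−2.55), Atp8a2 (−2.43), Ccl9 (−2.25) and Sgce (−2.04) stood further below microglia-only barcodes.

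Against Apoe-only barcodes 691 of 13345 genes passed (5.18%), 302 higher in members (2.26%) and 389 lower (2.91%). Without Scrublet's calls 340 passed, 75 higher and 265 lower. Nav3, a neuron navigator of homeostatic microglia, stood at 38.3 and 33.7 CPM in Apoe-only barcodes and at 147 and 251 CPM in members (2.40 ± 0.13, edgeR adjusted p = 1.40e-70). Adgrg1, an adhesion G-protein-coupled receptor of yolk-sac-derived microglia, stood at 47.1 and 40.5 CPM against 157 and 201 CPM (1.97 ± 0.13, adjusted p = 1.80e-46). Sparc, a matricellular protein related to Hevin that microglia make, stood at 1388 and 1226 CPM against 3830 and 4446 CPM (1.59 ± 0.04, adjusted p = 4.51e-311). The others named were the fructose transporter Slc2a5 (1.95), Plcl1 (1.80), Nav2 (1.64), the protease inhibitor Serpine2 (1.56), the tetraspanin Tspan7 (1.52), the ion exchanger Slc24a3 (1.37) and the selectin ligand Selplg (1.36). Without Scrublet's calls Slc24a3 did not pass, and the differences of Adgrg1 and Plcl1 were smaller, at 1.08 and 0.89 (adjusted p = 3.79e-05 and 0.0303).

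Genes lower in members than in Apoe-only barcodes were led by Spp1, the secreted phosphoprotein osteopontin, at 99.7 and 72.8 CPM in Apoe-only barcodes and 9.91 and 18.8 CPM in members (−2.60 ± 0.25, edgeR adjusted p = 2.79e-23). Lyz2, lysozyme of myeloid cells, stood at 3043 and 3463 CPM against 1714 and 1961 CPM (−0.90 ± 0.04, adjusted p = 3.88e-96). Cyp4f18, a lipid-oxidising cytochrome, stood at 116 and 125 CPM against 66.1 and 45.6 CPM (−1.21 ± 0.16, adjusted p = 6.97e-12). Further named genes were the antigen-presentation genes H2-Aa (−1.02) and Cd74 (−0.86), the interferon-induced Ifitm3 (−1.02), Ifi203 (−0.83) and AW112010 (−0.86), the phospholipid-binding Anxa5 (−0.96) and ceruloplasmin, Cp (−0.83). H2-Aa did not pass without the library block or with Apoe at 2% or more, where it stood at −0.26, and it stood at −2.54 with at least 2 Sall1 UMIs. Cp did not pass without Scrublet's calls.

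A gene set lying between the classes was followed further. Genes were taken that separated Apoe-only from microglia-only barcodes by at least 4-fold with a mean of at least 50 CPM, of which 38 were higher in microglia-only barcodes and 55 in Apoe-only barcodes. The fit that chose them held both Hevin libraries and mCherry replicate 1, whose Apoe-only sum rests on 20 barcodes. For each gene the members' CPM was placed on a scale from 0 (microglia-only level) to 1 (Apoe-only level). The median place was 0.704 (quartiles 0.584 and 0.776) in Hevin replicate 1 and 0.651 (0.568 and 0.708) in Hevin replicate 2. It was 0.713 and 0.638 over the microglial genes and 0.645 and 0.673 over the Apoe-side genes. All 38 microglial genes lay between the classes in both libraries. Some Apoe-side genes lay outside, such as Ntsr2 (−2.70 and −0.154) and Ccl5 (1.40 and 1.15). Their levels in members were low, at 3.30 and 1.34 CPM for Ntsr2 and 16.5 and 17.4 CPM for Ccl5. Others, such as Spp1 (−0.000527 and 0.196) and Gpnmb (−0.0266 and 0.122), lay nearer the microglia-only level. By the medians, summed members thus stood nearer to Apoe-only than to microglia-only barcodes on both sides of the set. When the genes were chosen from the Hevin libraries alone, an alternative added with the data in view, 79 of the 93 were kept, 14 dropped out (among them Spp1, Gpnmb, Ccl5, Cxcl10 and Ntsr2) and 5 came in. The median place over these 84 genes was 0.713 and 0.655.

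The place moved with the bounds of the gate. Members with 1 Sall1 UMI stood at 0.749 and 0.745, and those with 2 or more at 0.515 and 0.490. Without Scrublet's calls members stood at 0.822 and 0.835, and with Apoe at 2% or more of UMIs at 0.802 and 0.760. Barcodes that lacked only Sall1 stood at 0.942 and 0.947, and those that lacked only the P2ry12 bound at 0.976 and 0.95. Barcodes that met the Sall1 and P2ry12 bounds and had an Ms4a7 UMI but Apoe under 1% stood at 0.00311 and 0.00770, at the microglia-only level. Those that met the Sall1, P2ry12 and Apoe bounds but had no Ms4a7 numbered 72 and 40 and stood at 0.394 and 0.338. These places are medians over genes of summed barcodes, with no test.

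**Figure D4:**
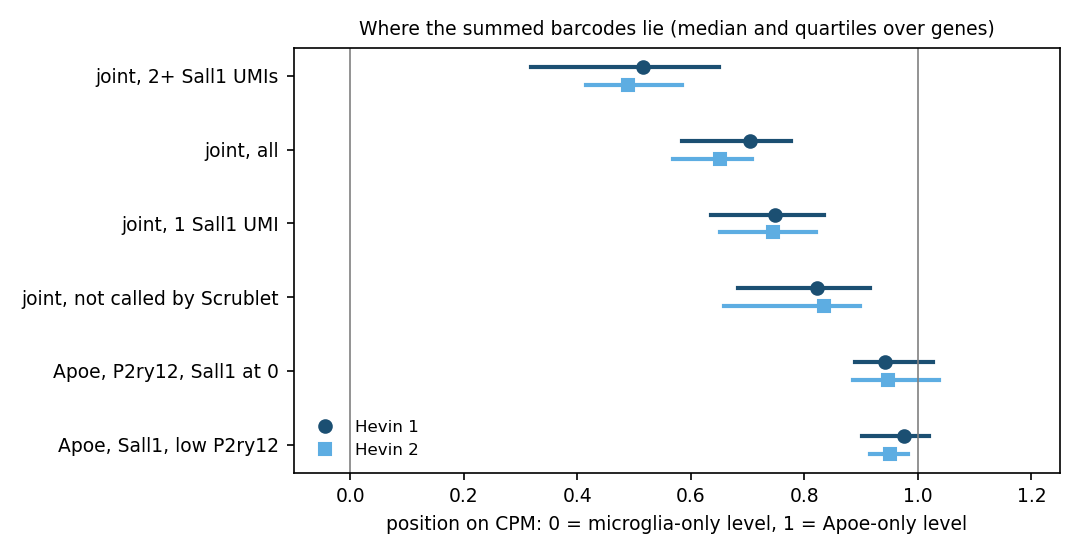
Median place over the separating genes (x axis, 0 for the microglia-only level and 1 for the Apoe-only level, on CPM; bars for quartiles over genes) of members, their subsets and barcodes that miss 1 bound (y axis), circles for Hevin replicate 1 and squares for Hevin replicate 2. All members lie at 0.704 and 0.651, members with 2 or more Sall1 UMIs nearer 0.5, and barcodes without Sall1 near 1.

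A sum between the classes can come from barcodes that each lie between or from a mixture, so single barcodes were scored by their percent of UMIs in the 38 microglial and the 55 Apoe-side genes. Microglia-only barcodes had medians of 2.00% and 2.26% microglial and 0.324% and 0.243% Apoe-side, and Apoe-only barcodes 0.300% and 0.279% microglial and 1.84% and 1.97% Apoe-side. Members had 0.517% and 0.796% microglial and 1.51% and 1.42% Apoe-side. A score was called in range where it reached the 5th percentile of its own class in the same library, 1.27% and 1.5% for the microglial and 1.16% and 1.30% for the Apoe-side genes. Only the Apoe-side score was in range in 112 members (70.9%) and 88 (57.5%), only the microglial score in 22 and 24, and neither in 21 and 41. Both were in range in 3 of 158 members (1.90%) and 0 of 153. With the 1st percentile in its place, 25 and 29 members had both, and with the 10th none had. With the 84 genes chosen from the Hevin libraries alone, 2 and 4 members had both and 114 and 87 the Apoe-side score alone.

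The label under which these barcodes were proposed, cells that join the 2 programmes, was met by the 4 gate genes, as the gate required. Over the wider gene set few single members had both scores in range. The midpoints between the class medians, given below, lie under the start of both ranges in both Hevin libraries. A barcode halfway between the classes would thus be in range for neither score, so this count cannot tell whether single members join the programmes. Most members had an Apoe-side score in the range of Apoe-only barcodes and a microglial score under the range of microglia-only barcodes. In the mCherry libraries the 6 members were as mixed. The Apoe-side score alone was in range in 1 member of each library, the microglial score alone in 1 of each, neither in 1 and both in 1 of replicate 1. The Apoe-side range of mCherry replicate 1 began at 0.469%, set by 20 barcodes, so the last of these is weakly determined.

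Members with the higher microglial scores were also the deeper ones and those with more Sall1. Under 3000 UMIs the median microglial score was 0.462% and 0.381%, and 87.9% and 78.6% of members had the Apoe-side score alone in range. From 6000 UMIs on the microglial score was 0.893% and 1.12%, the Apoe-side score 1.17% and 1.22%, and Scrublet called 66.7% and 87.8%. Members with 2 or more Sall1 UMIs had a median depth of 5124.5 and 6498 UMIs, a microglial score of 0.934% and 1.33% and an Apoe-side score of 1.11% and 1.15%, and Scrublet called 54.2% and 72.1% of them. Members with 1 Sall1 UMI had 3445 and 4023.5 UMIs, scores of 0.481% and 0.423% (microglial) and 1.60% and 1.55% (Apoe-side), and 20.1% and 32.7% called. The midpoints between the medians of the classes were 1.15% and 1.27% microglial and 1.08% and 1.11% Apoe-side. Medians of called members, 1.04% and 1.18% microglial and 1.2% and 1.15% Apoe-side, stood close to those values. Those of members not called, 0.455% and 0.372% microglial and 1.63% and 1.74% Apoe-side, did not. Even so, 45% and 31.3% of called members had the Apoe-side score alone in range. Scrublet calls by likeness to summed pairs of barcodes, so its calls are not independent of these scores. The closeness of called members to the midpoints therefore carries no test.

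**Figure D5:**
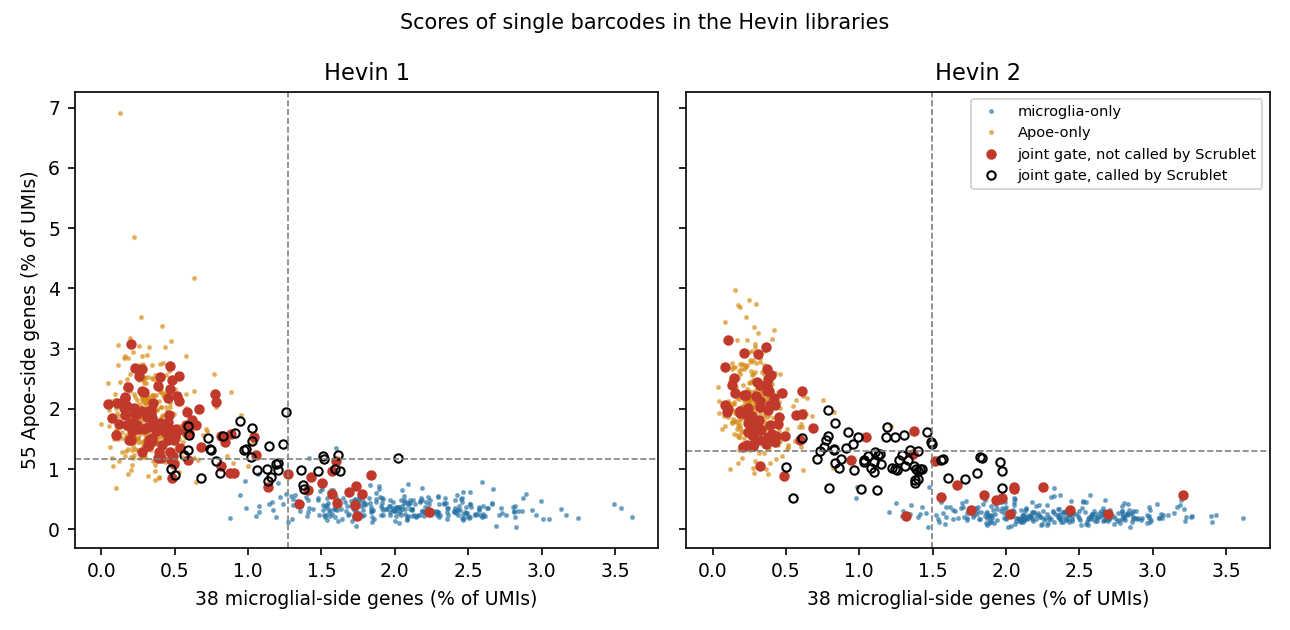
Percent of UMIs in the 38 microglial genes (x axis) and the 55 Apoe-side genes (y axis) of single barcodes in the 2 Hevin libraries: all members, and a fixed sample of each class; dashed lines mark the 5th percentile of each score in its own class. Most members not called by Scrublet have the Apoe-side score alone in range (79.7% and 77.9%). Medians of the called members lie between the classes, while 45% and 31.3% of them have the Apoe-side score alone in range. The calls are not independent of these scores.

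Homeostatic microglial genes were followed as a list of 20. Against microglia-only barcodes 18 were lower in members and 0 higher, with a median log2 fold change of −0.69 beside −0.01 over all genes. Against Apoe-only barcodes 17 were higher and 0 lower, with a median of 0.51 beside −0.02. Over all genes edgeR called 6.11% lower and 6.74% higher than in microglia-only barcodes, and 2.26% higher and 2.91% lower than in Apoe-only barcodes. Of the list DESeq2 called 14 lower and 13 higher in these comparisons. Sparc stood at 10202 and 10442 CPM in microglia-only barcodes, 3830 and 4446 CPM in members (−1.34 ± 0.04) and 1388 and 1226 CPM in Apoe-only barcodes. Cx3cr1, the fractalkine receptor, stood at 2278 and 2723, 1786 and 2152, and 1304 and 1446 CPM in the same order. Csf1r, the receptor on which microglial survival depends, stood at 2904 and 3568, 2510 and 2946, and 1980 and 2198 CPM. For each of these 3 genes the members lay between the classes within each library. Tmem119, a membrane protein of microglia, was 0.68 lower than in microglia-only barcodes on the log2 scale (−0.68 ± 0.05) and 0.51 ± 0.06 above Apoe-only barcodes. Fcrls did not pass against microglia-only barcodes (−0.02 ± 0.05, edgeR adjusted p = 0.904).

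A list of 16 genes that go with high Apoe had been chosen on these libraries, so its direction is not independent evidence. All 16 were higher in members than in microglia-only barcodes (median 2.69), and 13 were lower than in Apoe-only barcodes with none higher (median −0.56). Over all genes the edgeR shares were 6.74% higher than in microglia-only barcodes and 2.91% lower than in Apoe-only barcodes. Of the list DESeq2 called 15 and 7, and gave 7 no adjusted p in the second comparison. Bst2, the antiviral tether tetherin, stood at 365 and 281 CPM in microglia-only barcodes, 1548 and 1269 CPM in members and 2105 and 2002 CPM in Apoe-only barcodes. Axl, a receptor for dying cells, was at 42.5 and 29.7, 208 and 243, and 268 and 334 CPM. Ms4a6c, a neighbour of Ms4a7 in the same gene family, stood at 182 and 132, 948 and 1016, and 1410 and 1446 CPM. Apoc1, an apolipoprotein gene beside Apoe, stood at 18.8 and 23.4, 97.5 and 176, and 154 and 226 CPM.

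Of 17 transcription factors of microglia and macrophages tested against microglia-only barcodes, 5 were higher in members (Maf, Trps1, Tgif1, Runx3 and Ahr) and Sall3 was lower. Maf, a macrophage factor, stood at 884 and 1030 CPM in microglia-only barcodes and 1309 and 1385 CPM in members (0.47 ± 0.05, edgeR adjusted p = 1.31e-17), with 1246 and 1398 CPM in Apoe-only barcodes. Against Apoe-only barcodes Mef2a and Sall3 were higher, and Trps1 was lower, among 18 tested. Sall3 stood at 5.84 and 4.97 CPM in Apoe-only barcodes (2.51 ± 0.35, edgeR adjusted p = 1.68e-10). The other factors did not pass. DESeq2 called 4 higher and 1 lower against microglia-only barcodes and 1 higher against Apoe-only barcodes, where it gave 10 no adjusted p. Among all genes edgeR called 6.74% higher and 6.11% lower than in microglia-only barcodes, and 2.26% higher and 2.91% lower than in Apoe-only barcodes.

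Interferon-response genes were higher than in microglia-only barcodes in 6 of 16 tested and lower in 0 (median 0.88), and lower than in Apoe-only barcodes in 7 of 18 and higher in 0 (median −0.68). DESeq2 called only 2 higher and 2 lower, with 14 of the 18 given no adjusted p. The edgeR shares stand beside 6.74% of all genes higher than in microglia-only and 2.91% lower than in Apoe-only barcodes. Isg15, a ubiquitin-like protein induced by interferon, stood at 18.0 and 19.0, 33.0 and 24.1, and 54.9 and 48.4 CPM in microglia-only barcodes, members and Apoe-only barcodes. Class I antigen presentation was higher than in microglia-only barcodes in 6 of 10 genes and lower than in Apoe-only barcodes in 5 of 11, and in DESeq2 in 2 and 3. H2-K1, a class I heavy chain, stood at 591 and 447, 914 and 920, and 1275 and 1217 CPM. Of class II genes 1 of 6 was higher than in microglia-only barcodes and 5 of 6 were lower than in Apoe-only barcodes, and in DESeq2 1 and 1, with 4 given no adjusted p against Apoe-only barcodes. Cd74, the class II chaperone, stood at 182 and 156, 160 and 123, and 243 and 238 CPM, so members lay at or below microglia-only barcodes there.

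Lysosomal and phagocytic genes went both ways, with 7 of 18 higher and 6 lower than in microglia-only barcodes and 4 of 19 higher and 7 lower than in Apoe-only barcodes. DESeq2 called 4 and 2, then 2 and 2. Over all genes the edgeR shares were 6.74% higher and 6.11% lower than in microglia-only barcodes, and 2.26% and 2.91% against Apoe-only barcodes. Lyz2 stood at 501 and 389 CPM in microglia-only barcodes against the 1714 and 1961 CPM of members (2.05 ± 0.05). Ctsd, the protease cathepsin D, stood at 4702 and 4925, 4187 and 4598, and 3678 and 3874 CPM. Genes of lipid handling were higher than in microglia-only barcodes in 6 of 14 and lower in 2, and lower than in Apoe-only barcodes in 4 of 14. DESeq2 called 4 and 1, then 1. Abca1, the cholesterol exporter that loads apolipoproteins, stood at 240 and 255, 463 and 515, and 520 and 529 CPM (0.96 ± 0.08 against microglia-only barcodes, edgeR adjusted p = 5.73e-31). Lpl, lipoprotein lipase, was lower than in microglia-only barcodes (−1.1 ± 0.26, adjusted p = 0.000351).

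Chemokine and cytokine genes were higher than in microglia-only barcodes in 6 of 11 (Pf4, Ccl12, Cxcl16, Ccl2, Ccl3 and Il1b) and lower in 2 (Ccl9 and Ccl4). Against Apoe-only barcodes 1 of 14 was higher and 4 were lower. DESeq2 called 3 and 1, then 0 and 3, with 11 of the 14 given no adjusted p. Pf4, platelet factor 4, stood at 273 and 151, 1752 and 1402, and 2184 and 2030 CPM. Of complement genes 2 of 10 were higher and 5 lower than in microglia-only barcodes, and 2 were higher and 3 lower than in Apoe-only barcodes, and in DESeq2 1 and 2, then 2 and 0. C1qa, a chain of the first complement component, was alike at 7927 and 8314, 7581 and 8532, and 7930 and 8706 CPM. Of TGF-beta signalling genes, which maintain microglial identity, 1 of 11 was higher and 2 were lower than in microglia-only barcodes and 1 was higher than in Apoe-only barcodes. In DESeq2 1 was higher and 0 lower, then 0 passed with 6 of 11 given no adjusted p. Of all genes 6.74% were higher and 6.11% lower than in microglia-only barcodes, and 2.26% higher and 2.91% lower than in Apoe-only barcodes. Genes known from damage-associated and early postnatal microglia were higher in 4 of 17 and lower in 7 against microglia-only barcodes, and higher in 4 of 18 and lower in 5 against Apoe-only barcodes. DESeq2 called 3 and 3, then 1 and 2.

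Ribosomal protein genes were higher than in microglia-only barcodes in 66 of 81 and lower than in Apoe-only barcodes in 79 of 82, with medians of 0.21 and −0.32. Over all genes 6.74% were higher and 6.11% lower than in microglia-only barcodes, and 2.91% lower than in Apoe-only barcodes. DESeq2 calls were not counted for the ribosomal list. Immediate early and dissociation genes were higher in 2 of 13 and lower in 1 against microglia-only barcodes, and lower in 1 of 14 against Apoe-only barcodes. For these DESeq2 called 1 higher and 0 lower, then 0 higher and 1 lower, and gave 1 and 12 no adjusted p. Of S-phase genes 1 of 15 was higher than in microglia-only barcodes and 0 of 18 passed in edgeR against Apoe-only barcodes, with 1 at an unadjusted p under 0.05 and 0 in DESeq2. Of mitosis genes 0 of 15 and 0 of 20 passed in edgeR, with 5 and 0 at an unadjusted p under 0.05 and 0 in DESeq2. Their summed share of UMIs was 0.0350% in members of Hevin replicate 1 and 0.00678% in those of Hevin replicate 2.

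Markers of other cells that could enter the gate were read in the same sums. Of 11 genes of border-associated macrophages outside the gate, 5 (Pf4, Stab1, Mrc1, Dab2 and Clec4n) were higher than in microglia-only barcodes and the same number of 12 were lower than in Apoe-only barcodes. DESeq2 called 5 and 1, with 6 given no adjusted p in the second. Among all genes edgeR called 6.74% higher than in microglia-only and 2.91% lower than in Apoe-only barcodes. The 12 made up 0.405% and 0.368% of members' UMIs, and none was at 0. Mrc1, the mannose receptor, stood at 208 and 158, 871 and 875, and 938 and 1024 CPM. The defining border genes of the gate were low in members, with F13a1 at 41.7 and 20.1 CPM and Cd163 at 4.63 and 6.28 CPM, against 2352 and 2800 CPM and 648 and 1017 CPM in border macrophages. Of monocyte, neutrophil, lymphocyte, oligodendrocyte, neuronal, mural and erythroid markers 0 of 22 passed in edgeR against microglia-only barcodes and 0 of 34 against Apoe-only barcodes. At an unadjusted p under 0.05 there were 1 and 3, and in DESeq2 0, which gave 5 and 33 of them no adjusted p. Monocyte markers made up 0.00525% and 0.00402% of members' UMIs with 3 and 4 of 10 at 0, and neutrophil markers 0.00139% and 0.00226% with 5 and 6 of 8 at 0. Of 9 endothelial markers Bsg (−0.23) and Pecam1 (−1.54) were lower in edgeR than in microglia-only barcodes, beside 6.11% of all genes, and DESeq2 called 0. Against Apoe-only barcodes 0 passed in edgeR, with 1 at an unadjusted p under 0.05. DESeq2 called 0 there too and gave 8 no adjusted p. Of the astrocyte list Slc1a3, a glutamate transporter that is also one of the 38 microglial genes here, was lower than in microglia-only barcodes (−1.19 ± 0.15, edgeR adjusted p = 3.59e-13) and higher than in Apoe-only barcodes (0.94 ± 0.19, adjusted p = 4.31e-05). Sparcl1, the gene of Hevin, stood at 44.2 and 28.7, 34.7 and 12.1, and 48.1 and 31.5 CPM and was lower in members than in Apoe-only barcodes (−0.89 ± 0.25, edgeR adjusted p = 0.0122). For the astrocyte list DESeq2 called 1 gene lower and 0 higher than in microglia-only barcodes. Against Apoe-only barcodes it called 0 and gave all 10 no adjusted p. Whether UMIs of the viral transcript count as Sparcl1 is not given in the labels.

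Members were last set against the barcodes nearest to them, those that met the Apoe, Ms4a7 and P2ry12 bounds with Sall1 at 0, a comparison chosen after the data had been seen. Here 343 of 10694 genes passed (3.21%), 225 higher in members (2.10%) and 118 lower (1.1%). Nav3 stood at 55.6 and 59.9 CPM in the Sall1-free barcodes against the 147 and 251 CPM of members (1.83 ± 0.13, edgeR adjusted p = 9.48e-39). Sparc stood at 1850 and 1766 CPM against 3830 and 4446 CPM (1.24 ± 0.04, adjusted p = 2.65e-193). Adgrg1 (1.44), Slc2a5 (1.31), Tspan7 (1.27), Pmp22 (1.26), Xlr (1.23), Plcl1 (1.23), Fscn1 (1.23) and Ccl9 (1.2) were higher too. Lower in members were the interferon-inducible Ifi203 (−1.02), the phosphodiesterase Pde7b (−0.93), the sialyltransferase St8sia4 (−0.92), Cyp4f18 (−0.83), Reps2 (−0.82), the stress sensor Atf6 (−0.81), the mannosidase Man2a1 (−0.76), Tmem221 (−0.74), the scavenger receptor Msr1 (−0.72) and Txndc16 (−0.69). Of the homeostatic list 14 of 20 were higher and 0 lower (median 0.35), and of the Apoe-associated list 7 of 16 were lower and 0 higher (median −0.42). With no library block 45 genes passed and with DESeq2 31. Barcodes with a Sall1 UMI thus carried more of the microglial genes that the gate did not use than barcodes with none, and they were also deeper (3753.5 and 4545 against 2213 and 3247 UMIs) and more often called by Scrublet (25.3% and 43.8% against 3.40% and 4.89%). The part of depth and of doublets in that difference was not tested.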

How the data were processed

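Raw UMI counts per gene and barcode were deposited by the authors for 4 PIPseq libraries. Per the submitters' processing notes the build was mm10. For the aligner, the cell caller and the use of strand, nothing is given in the sources used here. Members, classes, gene lists and bounds were chosen with earlier results of these data known, and the classes that miss 1 bound were added with the data in view. Barcodes were kept at 500 UMIs or more and at most 10% mitochondrial UMIs (61371 of 61686). Scrublet was run per library through scanpy 1.11.5 and its calls were kept, except in the alternatives. Counts were summed per library and class where it had at least 20 barcodes and tested with edgeR 4.0.16 (TMM, filterByExpr, quasi-likelihood, class with library as block) in R 4.3.3, with Benjamini-Hochberg adjusted p under 0.05 over all genes as the threshold. The alternatives with all 4 libraries set this minimum aside. The test script was checked on simulated data. DESeq2 1.42.0 was an alternative. No test of Hevin against mCherry within members was run, since the mCherry libraries held 4 and 2.

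Genes were named by a rule. A gene had to pass the threshold, average 50 CPM or more and keep its sign in every library. Named were the 10 largest and the 10 smallest log2 fold changes, genes that passed in the same direction against both classes (up to 10 a side), and up to 4 examples per list. The values of 1 example are not reported here. The 25 cell and pathway lists and the ribosomal list held no gate gene. Gene positions are those of GENCODE M21 (GRCm38). Shares have exact Clopper-Pearson intervals at 95% confidence, which cover counting error only.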

Additional observations from a re-analysis of the deposited data

How the results depend on the processing

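The Hevin minus mCherry difference in the share of members, 0.968 percentage points, kept its direction in every alternative run, between 0.221 (at least 2 Sall1 UMIs) and 1.33 (barcodes of 3000 to 8000 UMIs), and between 0.784 and 1.15 with 1 library left out. Against microglia-only barcodes the 1420 genes past the threshold became 455 with DESeq2, 764 without the library block, 373 with at least 2 Sall1 UMIs and 744 with all 4 libraries (822 and 861 without mCherry replicate 1 or 2, 209 and 109 without Hevin replicate 1 or 2). Against Apoe-only barcodes the 691 became 228 with DESeq2, which gave 11125 genes no adjusted p, 157 without the block, 260 with Apoe at 2% or more, 417 with at least 2 Sall1 UMIs, 340 without Scrublet's calls and 341 with all 4 libraries (336, 367, 25 and 15 in the same order). Against Sall1-free barcodes the 343 became 31 with DESeq2, 45 without the block and 135 with all 4 libraries (135, 160, 11 and 2). The mean place of 0.678 became 0.781 with Apoe at 2% or more, 0.505 with at least 2 Sall1 UMIs, 0.829 without Scrublet's calls, 0.684 with separating genes from the Hevin libraries alone, 0.747 in members with 1 Sall1 UMI and 0.503 in those with more. The mean depth over the sum of the class medians, 0.687, became 0.571 without Scrublet's calls and 0.916 with at least 2 Sall1 UMIs. Members with both scores in range, 3, became 54 at the 1st percentile, 6 with those genes and 0 at the 10th, without Scrublet's calls or, between 0 and 3, with 1 Hevin library left out. Of 393 values of named genes under the alternatives 386 stayed past the threshold, 7 did not and 0 reversed. A further 7 had no adjusted p, 6 with DESeq2 and 1 with all 4 libraries, and the 20 genes named against Sall1-free barcodes were not rerun. The causes were not tested. The settings with all 4 libraries did not keep the minimum of 20 barcodes per sum. Their mCherry sums held 4 and 2 members, 20 and 9 Apoe-only barcodes and 10 and 8 Sall1-free barcodes. These settings, those on Sall1 UMIs within members, those on score ranges and the separating genes of the Hevin libraries alone were chosen after the data had been seen. Leaving 1 Hevin library out of the class comparisons left no residual degrees of freedom and was not run, nor were alternatives of the Hevin against mCherry test within members. No paired analysis was possible because the replicate numbers of the mCherry and Hevin libraries name no shared animal or batch and the members' share is 1 value per library.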

Other observations

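Of 11020 genes tested in both comparisons 10 were higher and 21 lower in members than in each class, where the members' own sums enter both fits. With the mean of 50 CPM and 1 sign in both libraries 3 and 18 were left. Plekhm2, an adaptor of lysosome transport, stood at 28.6 and 39.0 CPM in microglia-only barcodes, 56.2 and 75.1 CPM in members and 39.7 and 42.9 CPM in Apoe-only barcodes. The other 2 higher genes were Hdgf (0.75 against microglia-only and 0.56 against Apoe-only barcodes) and Med13 (0.54 and 0.51). Ndufa8, a subunit of respiratory complex I, stood at 105 and 108, 56.2 and 75.1, and 98.0 and 101 CPM. The other 9 named among the lower genes were Rbbp7 (−0.58 and −0.64), Ndufs5 (−0.53 and −0.66), Ndufs7 (−0.43 and −0.43), Psma2 (−0.38 and −0.36), Gm50021 (−0.38 and −0.36), Gngt2 (−0.32 and −0.39), Gm36264 (−0.31 and −0.36), Cmss1 (−0.25 and −0.28) and Atp5j (−0.25 and −0.31). With DESeq2, and without the library block, 0 genes passed in the same direction in both comparisons. Of the members 0 of 158 and 2 of 153 held both Xist and Y-linked RNA. Among all deposited barcodes of these libraries Xist was seen in 0.287% and 94.5% and Y-linked RNA in 25.2% and 0.696%. Since 1 of these RNAs was rare in each library, the counts cannot show whether members hold 2 cells.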
